A study of Mus musculus with 12 samples.

Results

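A set of 10 genes of the ADAMTS and ADAMTS-like (ADAMTSL) families was followed in mouse mesenchymal cells that spread on collagen with or without the secreted matrix protein aortic carboxypeptidase-like protein (ACLP). The genes were listed by name (Adamts1, Adamts2, Adamts4, Adamts5, Adamts7, Adamts10, Adamts12, Adamtsl1, Adamtsl2 and Adamtsl4) and are 10 of the 56748 genes in the count table. Wild-type CH310T1/2 cells (written 10T1/2 in the study), a line of mouse mesenchymal progenitors, were starved in 0.5% serum and spent 1 h in suspension. They then grew for 18 h, by the study's methods again in 0.5% serum, on 12 kPa gels that carried type I collagen (0.05 mg/ml). The col1 group had collagen alone. In the col1-ACLP group the collagen was polymerized with 30 nM recombinant ACLP. The col1-ACLP+SB group had the same coating and also received 5 µM SB431542, an inhibitor of the TGFβ type I receptor ALK5. Each group held 4 bulk RNA-seq libraries of polyA RNA. No library had the inhibitor on collagen alone, so the inhibitor's own action and its action on the ACLP response cannot be told apart. All libraries came from 1 cell line.

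ADAMTS enzymes are secreted metalloproteases that cut matrix proteins outside the cell. Adamts1, Adamts4 and Adamts5 cut the large proteoglycans versican and aggrecan, Adamts2 removes the amino-terminal propeptide of fibrillar procollagens, Adamts7 and Adamts12 cut cartilage oligomeric matrix protein, and Adamts10 binds fibrillin-1. ADAMTSL proteins have the same accessory domains but no protease domain, and several of them, Adamtsl2 and Adamtsl4 included, bind fibrillin microfibrils.

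All 10 genes passed the filter on low counts, as did 16465 genes in all. The libraries held 29246154 to 52201922 counts. One library, col1 replicate 2, stood apart on the first principal component (19.5% of the variance) at -86.7, against -11.1 to -8.97 in the other col1 libraries. Summed mesenchymal markers, 7 of 8 tested and Fap at 0 in all 12 libraries, ran from 24918 to 25816 CPM (counts scaled to a common library total) on col1, from 34735 to 42979 with ACLP and from 31694 to 37231 with ACLP and the inhibitor. Within this list only the collagen genes Col1a1 and Col1a2 rose on col1-ACLP. Pdgfra, a receptor of mesenchymal progenitors, was called lower against col1 in both ACLP groups (log2 fold change -0.76 and -0.60), S100a4 (-0.50) and Pdgfrb (-0.15) were lower by adjusted p on col1-ACLP, and Vim and Thy1 did not pass the test there. Epithelial (4 genes), endothelial (4 genes) and leukocyte (4 genes) markers summed to at most 4.84, 9.85 and 10.0 CPM in any library. The endothelial sum was 7.52 to 9.85 CPM on col1-ACLP and 4.30 to 6.41 with the inhibitor, mostly from Tek, and the leukocyte sum was 9.14 to 10.0 CPM on col1 and 5.32 to 8.72 on col1-ACLP, mostly from Cd68. Epcam, Adgre1 and Cd3e were at 0 in every library. Of the 4 chondrocyte markers Acan, which encodes the aggrecan core protein, was at 0 in all 12 libraries and Matn3 did not pass the filter. The list summed to 1329 to 1525 CPM on col1, to 3481 to 4574 with ACLP and to 2791 to 3347 with ACLP and the inhibitor. The chondrocyte list, through Col2a1 and Sox9, and the mesenchymal, endothelial and leukocyte lists thus moved with groups, and their part in the results was not tested.

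Adamts1 and Adamts5 lie next to each other on chromosome 16 (GRCm39, both on the minus strand), 53.1 kb apart with 0 protein-coding genes between them, while Adamts4 is on chromosome 1. The 250 bases before the annotated start of Adamts1 and of Adamts4 are shown because these enzymes share their best known substrates and moved in opposite directions. Capitals mark matches on either strand to the GC box (letters GGGCGG), the SMAD element (letters CAGAC) and the TATA box, which was searched as the letters TATAAA.
Adamts1, chr16:85600010-85600259, minus strand: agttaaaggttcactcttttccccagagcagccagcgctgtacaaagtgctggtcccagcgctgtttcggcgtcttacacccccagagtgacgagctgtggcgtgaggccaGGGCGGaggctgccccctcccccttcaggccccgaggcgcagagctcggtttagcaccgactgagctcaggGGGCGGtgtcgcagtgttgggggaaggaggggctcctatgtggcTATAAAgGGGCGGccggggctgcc
Adamts4, chr1:171077740-171077989, plus strand: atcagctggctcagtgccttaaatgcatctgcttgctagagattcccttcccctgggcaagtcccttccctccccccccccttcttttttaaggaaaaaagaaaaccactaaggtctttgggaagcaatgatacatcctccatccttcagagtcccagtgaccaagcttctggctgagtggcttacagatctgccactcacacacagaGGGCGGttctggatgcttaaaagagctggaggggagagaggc
The window of Adamts1 held 3 GC boxes and a TATA box 24 bases before the start. That of Adamts4 held 1 GC box and neither of the others. Among the 9 windows searched, 7 held a GC box, 2 a TATA box and 3 a SMAD element, against 36.3%, 11.9% and 41.3% of 21769 mouse promoters of the same length. The TATA letters of Adamtsl1 lay 196 bases before an annotated start at 85971925. That start is inside the gene, which begins at 85432409. None of the 9 held the AP-1 letters TGANTCA or the TEAD letters CATTCC, which 6.17% and 12.1% of all promoters held. These matches describe the letters and were searched after the expression results were known. The median GC content of all the windows was 53.2%, and those of Adamts1 and Adamts4 had 64.8% and 51.6%. Those of Adamts2, Adamts7 and Adamts10 had 74%, 72.4% and 66.8%, and those of Adamts12, Adamtsl2 and Adamtsl4 had 62.8%, 62.8% and 64.4%. That of Adamtsl1 had 48.4%. The GC boxes were not compared with promoters of like GC content.

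The 10 genes covered a wide range of levels. On the scale of CPM per kb of gene length, Adamts1 was highest on col1 at 72.0 ± 1.51 (SD, n = 4), followed by Adamts5 at 52.9 ± 1.99 and Adamtsl4 at 18.2 ± 2.00. Adamts2, Adamts10, Adamts4, Adamts12 and Adamts7 followed in that order, between 11.1 and 3.60. Adamtsl2 at 0.143 ± 0.0400 and Adamtsl1 at 0.0375 ± 0.0140 were near the lower end of what the libraries could count, with 29 to 58 and 8 to 25 counts per col1 library. On col1 no gene overlapped its neighbour in this order in any library. On col1-ACLP the order of Adamts4 and Adamts12 was exchanged (4.71 ± 0.238 and 6.30 ± 0.315), and Adamts2 and Adamts10 overlapped. On col1-ACLP+SB Adamts10 (11.2 ± 0.231) stood above Adamts2 (10.5 ± 0.269), and Adamts4 and Adamts12 overlapped. The 10 genes summed to 181 ± 3.91 on col1. They summed to 251 ± 22.2 on the ACLP coating and to 211 ± 8.85 when the inhibitor was added. Adamts1 and Adamts5 made up 39.9% and 29.3% of it on col1, and 41.5% and 32.8% on col1-ACLP.

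**Figure D1:**
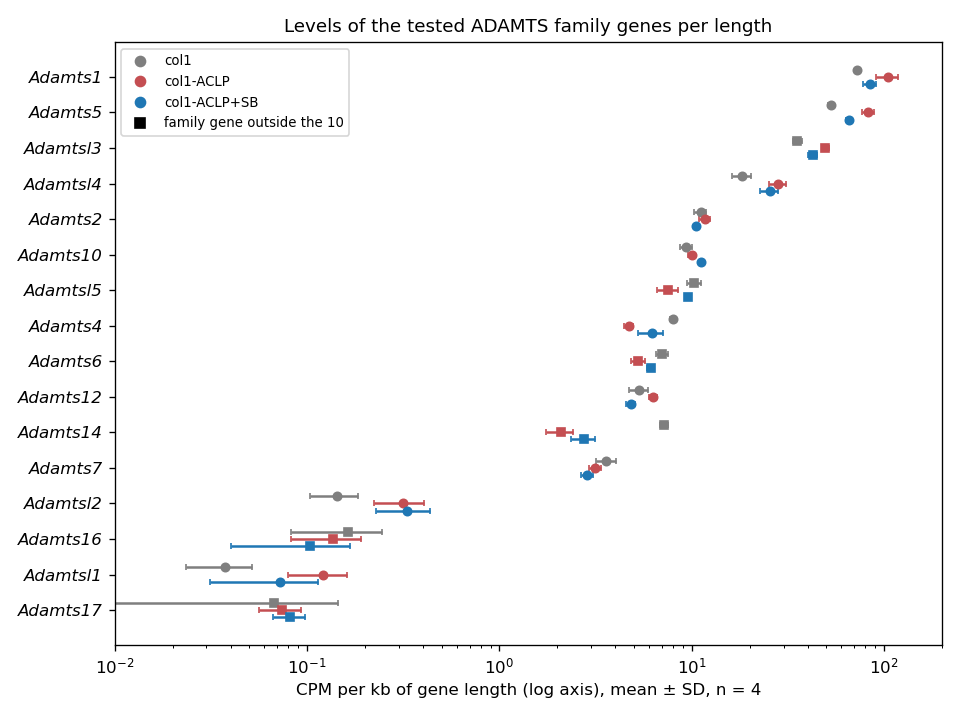
Levels of the 16 tested family genes in CPM per kb of gene length on a log axis, as mean ± SD of 4 libraries for each group; circles are the 10 listed genes and squares other family members. Adamts1 and Adamts5 are highest in every group and Adamtsl1 and Adamtsl2 lie below 0.5; the lower bar of Adamts17 on col1 is cut at the left edge.

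The first comparison asked what collagen-bound ACLP did to these genes, col1-ACLP against col1. Adamts5, Adamtsl1, Adamtsl2 and Adamtsl4 were called higher and Adamts4 was called lower, at an adjusted p under 0.05 and a log2 fold change beyond 0.58 in size, the study's own rule. These are 4 and 1 of 10 genes, where 2.61% of all tested genes were called higher and 2.36% lower. Without col1-ACLP replicate 4 the genes called higher numbered 1, and with glmTreat, which tests against the fold threshold itself, 0 were called in either direction. By adjusted p alone 6 of the 10 were higher, with Adamts1 and Adamts12 added, and 1 was lower (9.52% and 8.41% of all genes). The libraries of both groups did not overlap for 7 of the 10, against 21.2% of all genes. The median log2 fold change was 0.39 over the 10 genes and -0.0099 over all genes.

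Adamts5, the main aggrecanase of mouse cartilage, was at 599.8, 569, 548 and 565 CPM in the col1 libraries and at 841, 849.7, 885 and 978 CPM in the col1-ACLP libraries. Every col1-ACLP library was thus above every col1 library. The rise was 1.56-fold (log2 fold change 0.64, SE 0.0470, adjusted p = 1.19e-10, edgeR quasi-likelihood test with Benjamini-Hochberg adjustment). Adamts1, its neighbour on the chromosome and an enzyme that cuts versican during ovulation, was at 389, 379.6, 371 and 387 CPM on col1 and at 509, 495, 561 and 649.7 CPM on col1-ACLP. These groups did not overlap either. Its log2 fold change of 0.54 (SE 0.0655, adjusted p = 8.16e-07, edgeR) passed the test and stayed below 0.58. Replicate 4 was the highest col1-ACLP library for both genes, and for 5 of the 10 genes in all.

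Adamts4, a second aggrecanase, went the other way. It was at 38.4, 37.1, 37.8 and 40.4 CPM on col1 and at 23.6, 21.9, 23.7 and 21.4 CPM on col1-ACLP. The groups were well apart and each was tight. Its level on col1 was 1.70-fold that on col1-ACLP (log2 fold change -0.76, SE 0.0916, adjusted p = 6.35e-07, edgeR). Within a library, the ratio of Adamts5 to Adamts4 in CPM per kb was 6.63 ± 0.334 on col1 and 17.6 ± 1.96 on col1-ACLP (SD, n = 4), and it was 10.8 ± 2.09 on col1-ACLP+SB.

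**Figure D2:**
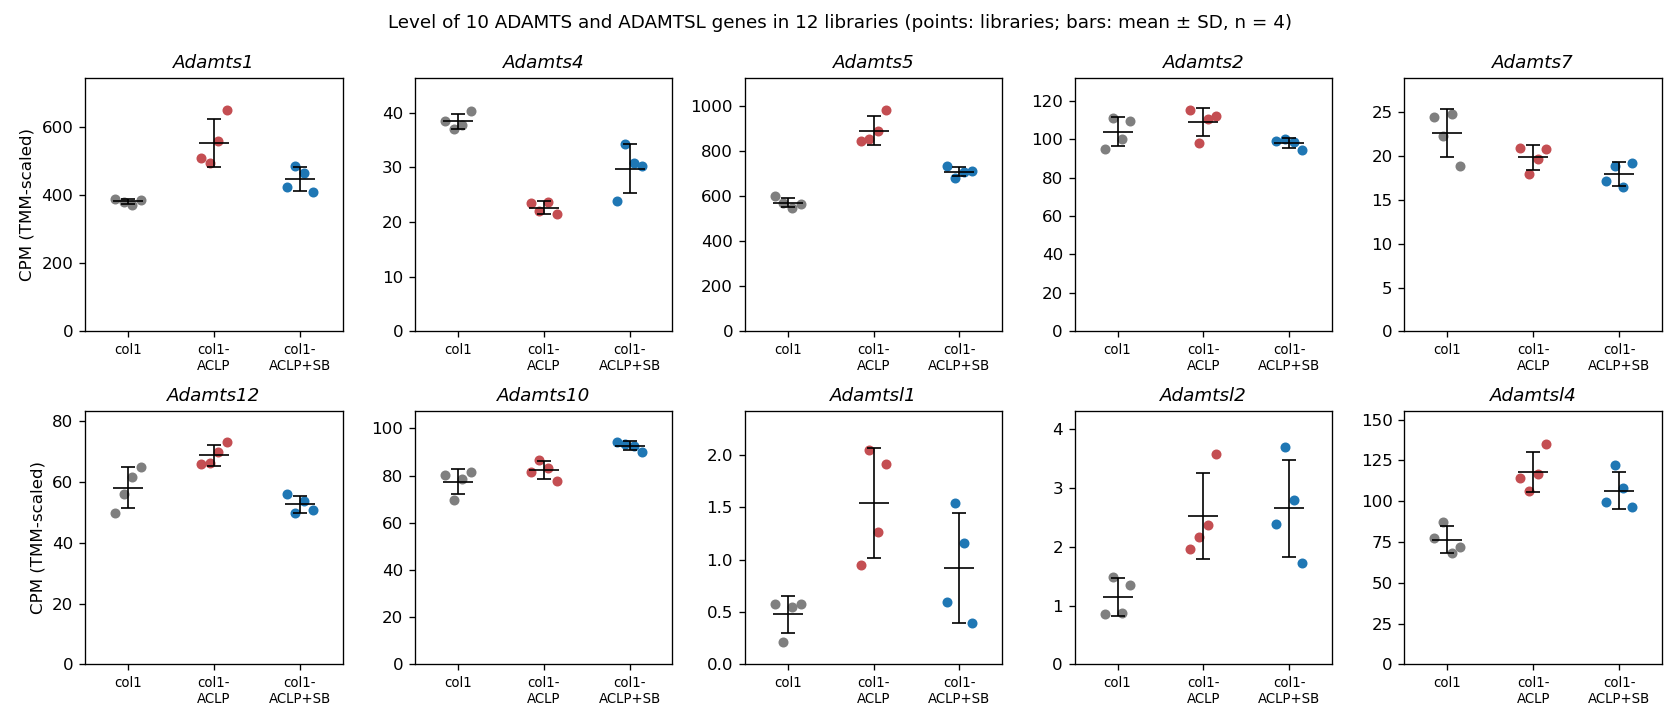
CPM of each of the 10 genes in the 12 libraries, with the mean and SD of 4 libraries per group on axes that start at 0. No col1-ACLP library overlaps the col1 range of Adamts5 and Adamts1 (above it) or Adamts4 (below it), with the col1-ACLP+SB means in between.

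Adamts2, Adamts7 and Adamts10 did not pass the test on col1-ACLP. Adamts2, the main procollagen N-proteinase of skin, ran from 94.9 to 111 CPM on col1 and from 98.0 to 115 CPM on col1-ACLP (log2 fold change 0.068, SE 0.0600, adjusted p = 0.515, edgeR). Adamts7 ran from 18.9 to 24.8 and from 17.9 to 20.9 CPM (-0.19, adjusted p = 0.230). Adamts10 ran from 69.5 to 81.7 and from 77.7 to 86.8 CPM (0.088, adjusted p = 0.356). The ranges of both groups overlapped for each of these genes. Adamts12, which shares its substrate with Adamts7, was at 49.8, 56.1, 61.8 and 64.9 CPM on col1 and at 65.8, 66.2, 69.8 and 73.2 CPM on col1-ACLP. The groups touched without overlapping, and the log2 fold change was 0.24 (SE 0.0735, adjusted p = 0.0223). It passed in 15 of 20 alternatives, and the adjusted p reached 0.112 without col1 replicate 1.

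The 3 listed ADAMTS-like genes were called higher on col1-ACLP (2.61% of all genes), while Adamtsl3 and Adamtsl5, outside the 10, were not called. Adamtsl4, a fibrillin-1 binder needed for the fibres that hold the lens, was at 77.7, 87.6, 68.2 and 72.3 CPM on col1 and at 115, 106, 117 and 135 CPM on col1-ACLP. The groups did not overlap (log2 fold change 0.63, SE 0.0812, adjusted p = 2.05e-06, edgeR). The value lies close to 0.58. It fell under that cutoff to 0.56 without col1-ACLP replicate 4 and to 0.578 without col1 replicate 3. Adamtsl2, which binds fibrillin-1 and a latent TGFβ binding protein, was at 0.861, 1.48, 0.880 and 1.35 CPM on col1 and at 1.96, 2.16, 2.37 and 3.58 CPM on col1-ACLP. Its groups did not overlap, and the highest library was again col1-ACLP replicate 4 (log2 fold change 1.13, SE 0.321, adjusted p = 0.0138). The adjusted p was 0.0757 without that library. Adamtsl1, also called punctin, was at 0.574, 0.212, 0.546 and 0.581 CPM on col1 and at 0.947, 2.05, 1.27 and 1.91 CPM on col1-ACLP (log2 fold change 1.68, SE 0.509, adjusted p = 0.0211). It rested on 8 to 25 counts against 31 to 74 counts per library, with col1-ACLP replicates 2 and 4 the highest. Its adjusted p was 0.0505 without col1 replicate 2, the library that stood apart, 0.0785 without col1-ACLP replicate 2 and 0.0632 without col1-ACLP replicate 4. With the replicate number as a block it was 0.0504.

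Without col1 replicate 2, 3 of the 10 genes were called higher and 1 lower. Antisense RNAs overlap 6.86% of the length of Adamtsl2, 1.50% of that of Adamtsl1 and, in a pair, 3.29% and 2.29% of that of Adamtsl4. In bulk RNA, more cells that express a gene and more RNA per cell cannot be told apart.

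The second comparison, col1-ACLP+SB against col1, measured ACLP and the inhibitor together against collagen alone without the inhibitor. It shares the col1 libraries with the first, so both are given side by side without a measure of their likeness. Adamtsl2 alone of the 10 was called higher and 0 were called lower by the edgeR test, where 1.27% and 1.01% of all genes were called. At an unadjusted p under 0.05 stood 7 of the 10, against 19.9% of all genes. By adjusted p alone 5 were higher (Adamts1, Adamts5, Adamts10, Adamtsl2 and Adamtsl4) and 2 lower (Adamts4 and Adamts7), against 4.60% and 4.54% of all genes. The groups did not overlap for 6 of the 10 genes, against 13.0% of all genes. The median log2 fold change was 0.24.

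Adamts5 was at 734, 681, 706 and 709.7 CPM in the col1-ACLP+SB libraries, above every col1 library and below every col1-ACLP library. Its log2 fold change against col1 was 0.31 (SE 0.0469, adjusted p = 3.57e-05, edgeR), compared with 0.64 without the inhibitor. Adamts1 was at 426, 487, 466 and 410.0 CPM, also between both other groups (log2 fold change against col1 0.23, adjusted p = 0.0256). This passed in 15 of 20 alternatives, with an adjusted p of up to 0.0939 (without col1-ACLP+SB replicate 2). Adamts4 was at 23.8, 34.3, 30.8 and 30.2 CPM, with replicate 1 close to the col1-ACLP level and the others between both groups (-0.37, adjusted p = 0.00788). These 3 enzymes thus had smaller differences from col1, each in the direction seen without the inhibitor.

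Adamtsl2 was also called with the inhibitor present. It was at 2.39, 3.69, 2.80 and 1.72 CPM, above every col1 library (log2 fold change 1.21, SE 0.320, adjusted p = 0.0150, edgeR). The adjusted p was 0.0645 without replicate 2, its highest library. Adamtsl4 was at 99.4, 122, 108 and 96.5 CPM and also stayed above every col1 library, 0.48 higher on the log2 scale (adjusted p = 1.58e-04). Adamtsl1, at 0.598, 1.54, 1.16 and 0.397 CPM, overlapped col1 (0.95, adjusted p = 0.315). Adamts10 was at 94.4, 93.5, 92.4 and 90.0 CPM, higher than every library of both other groups (log2 fold change against col1 0.26, adjusted p = 0.00381). Adamts7 ran from 16.5 to 19.3 CPM (-0.33, adjusted p = 0.0346), overlapping col1, and passed in 14 of 20 alternatives, with an adjusted p of up to 0.127 (without col1 replicate 3).

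The third comparison, col1-ACLP+SB against col1-ACLP, set the inhibitor against its absence on the ACLP coating. It shares libraries with both other comparisons. Of the 10 genes 0 were called in either direction by the edgeR test, and 0 by DESeq2 or limma-voom, where 0.0850% and 0.0425% of all genes were called higher and lower. At an unadjusted p under 0.05 stood 6 of the 10, against 12.8% of all genes. By adjusted p alone Adamts4 was higher with the inhibitor (log2 fold change 0.39, SE 0.0920, adjusted p = 0.0269) and 3 genes were lower, against 0.571% and 0.905% of all genes. The Adamts4 difference passed in 11 of 20 alternatives, with an adjusted p of up to 0.115 (without col1-ACLP+SB replicate 2). Adamts5 fell by 0.33 on the log2 scale (SE 0.0468, adjusted p = 3.29e-04), Adamts1 by 0.31 (SE 0.0653, adjusted p = 0.0136) and Adamts12 by 0.38 (SE 0.0738, adjusted p = 0.00612). That of Adamts1 passed in 18 of 20 alternatives and was 0.0614 without col1-ACLP replicate 4 and 0.0711 without col1-ACLP+SB replicate 4. The Adamts12 libraries with the inhibitor, at 56.1, 49.7, 53.9 and 50.9 CPM, overlapped the col1 libraries. The groups did not overlap for 5 of the 10 genes, against 8.17% of all genes. For Adamts4 the gap was small, since its lowest library with the inhibitor (23.8 CPM) was next to the highest one without it (23.7 CPM).

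The 3 listed ADAMTS-like genes did not pass this test. Adamtsl4 changed by -0.15 (SE 0.0806, adjusted p = 0.476), Adamtsl2 by 0.078 (SE 0.311) and Adamtsl1 by -0.74 (SE 0.491). Adamtsl1 and Adamtsl2 had standard errors several times that of Adamts5. Adamts2, Adamts7 and Adamts10 did not pass either (-0.15, -0.15 and 0.17). Of the ADAMTS-like genes outside the 10, Adamtsl3 was lower (-0.22, adjusted p = 0.0253) and Adamtsl5 higher (0.34, adjusted p = 0.0348) with the inhibitor by adjusted p alone.

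**Figure D3:**
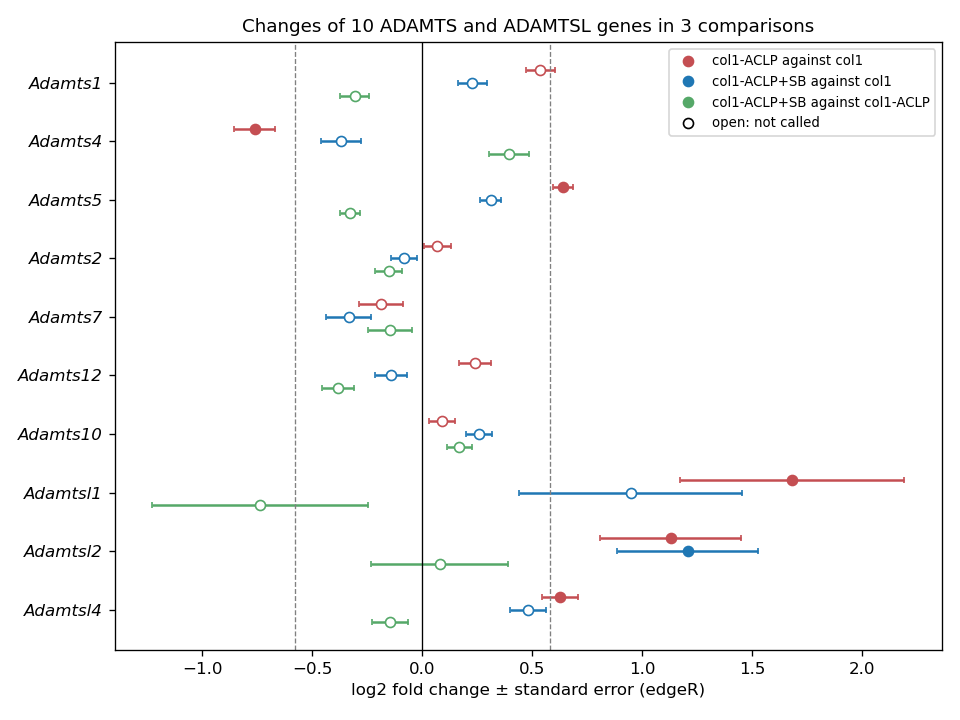
Log2 fold changes of the 10 genes with standard errors from edgeR in the 3 comparisons; filled points were called and dashed lines mark 0.58 on either side of 0. Adamts1, Adamts5 and Adamts4 lie nearer 0 with the inhibitor (blue) than without it (red), while Adamtsl2 is at 1.13 and 1.21.

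Of the 16 other family genes, 6 passed the filter and Adamts3, Adamts18, Adamts19 and Adamts20 had no count in any library. Adamts14, a second procollagen N-proteinase, was called lower on col1-ACLP. It was at 36.4, 35.2, 39.4 and 37.8 CPM on col1 and at 10.3, 11.9, 8.65 and 12.5 CPM on col1-ACLP. With the inhibitor it was at 16.5, 15.1, 14.1 and 11.5 CPM. Both ACLP groups were far below col1 (log2 fold change -1.78, SE 0.117, adjusted p = 1.56e-11, and -1.38, SE 0.114, adjusted p = 2.63e-09, edgeR). The ratio of Adamts2 to Adamts14 in CPM per kb was 1.56 ± 0.154 in the col1 libraries, 5.73 ± 1.16 with ACLP and 3.87 ± 0.520 with ACLP and the inhibitor (SD, n = 4). Adamtsl3, the third most abundant tested gene of the family per length, rose by 0.48 on the log2 scale on col1-ACLP (adjusted p = 6.78e-08) and by 0.27 with the inhibitor (adjusted p = 6.87e-04). Adamts6 fell by 0.41 (adjusted p = 1.14e-04) and Adamtsl5 by 0.45 (adjusted p = 2.62e-04) on col1-ACLP. In all 0 of these 6 genes were called higher and 1 lower in that comparison (2.61% and 2.36% of all genes), with 4 at an unadjusted p under 0.05 (28.3% of all genes).

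Among the 18 substrate and partner genes, 16 were tested, and 6 were called higher and 1 lower on col1-ACLP (2.61% and 2.36% of all genes). This list, like the others and the 10 genes, was chosen with earlier results of these data known. The study had reported Col1a1, a member of the list, as induced. Vcan, the versican core protein that Adamts1, Adamts4 and Adamts5 cut, rose by 0.30 on the log2 scale (SE 0.0529, adjusted p = 1.71e-04, edgeR), was not called, and was at 0.065 with the inhibitor (adjusted p = 0.568). The Vcan libraries ran from 366 to 407 CPM on col1, from 444 to 507 with ACLP and from 379 to 432 with ACLP and the inhibitor. Comp, the cartilage oligomeric matrix protein that Adamts7 and Adamts12 cut, named here after its values were seen, was lower by adjusted p alone on col1-ACLP (-0.29, adjusted p = 0.0464) and was at 0.072 with the inhibitor (adjusted p = 0.779). The procollagen genes Col1a1 (0.82), Col1a2 (0.65), Col5a1 (0.93) and Col2a1 (1.80) were called higher, whereas Col3a1, another abundant fibrillar procollagen gene and likewise named after its values were seen, was at 0.073 (adjusted p = 0.154) with overlapping libraries. Fbn1, the fibrillin-1 gene, was also called higher (0.71, SE 0.0538, adjusted p = 2.21e-10). Col1a1 ran from 11727 to 12110 CPM on col1 and from 18576 to 24445 on col1-ACLP. With the inhibitor Col1a1 (0.63), Col2a1 (1.43) and Col5a1 (0.62) were still called, whereas Fbn1 (0.43) and Col1a2 (0.44) passed the adjusted p alone. Bcan, the core protein of brevican, was called in both comparisons (2.14 and 2.40) on few counts, 0 to 55 per col1 library. Dcn, the decorin gene, was called lower in both (-1.65 and -1.35). Exons of an antisense RNA overlap 20.1% of the length of Fbn1 and 10.5% of that of Col1a2.

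Of 18 genes for regulators of these enzymes and their matrix, 16 were tested, 2 were called higher and 0 lower on col1-ACLP (2.61% and 2.36% of all genes), with 9 at an unadjusted p under 0.05 (28.3% of all genes). By adjusted p alone 4 were higher and 3 lower, against 9.52% and 8.41% of all genes. Those not called are named here after their values were seen. Has2 (0.55) and Tll1 (0.49) were higher, and Timp2 (-0.24), Bmp1 (-0.39) and Sdc1 (-0.28) were lower. Timp3, the tissue inhibitor that blocks Adamts4 and Adamts5, was at 270.0, 284, 287 and 315 CPM on col1 and at 527, 547, 562 and 615 CPM on col1-ACLP (log2 fold change 0.96, SE 0.0540, adjusted p = 8.40e-13, edgeR). With the inhibitor it lay between, at 433, 399, 439.5 and 402 CPM, 0.53 above col1 and 0.43 below col1-ACLP on the log2 scale (adjusted p = 7.34e-08 and 7.13e-05). The ratio of Adamts5 to Timp3 in CPM per kb was 1.50 ± 0.137 in the col1 libraries, 1.19 ± 0.0145 with ACLP and 1.28 ± 0.0496 with ACLP and the inhibitor. Exons of Syn3 overlap 21.3% of the length of Timp3 on the opposite strand. Hapln1, the link protein that fastens proteoglycans to hyaluronan, ran from 1.09 to 1.76 CPM on col1 and from 7.15 to 9.96 CPM on col1-ACLP. It was called higher in both comparisons with col1 (2.48, SE 0.234, and 1.65, SE 0.232). Furin, the convertase that removes ADAMTS propeptides, changed by 0.10 (adjusted p = 0.260) and Lrp1, the receptor that clears Adamts5 from the cell surface, by 0.065 (adjusted p = 0.497). Neither passed the test in any comparison. Between the ACLP groups 0 of the other family, substrate and regulator genes were called by edgeR, with 4 of 6, 10 of 16 and 5 of 16 at an unadjusted p under 0.05 (12.8% of all genes). DESeq2 and limma-voom each called 1 of them, a regulator that was lower with the inhibitor. The medians of these lists on col1-ACLP were -0.33 for the other family genes, 0.30 for the substrates and 0.023 for the regulators, beside -0.0099 for all genes.

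**Figure D4:**
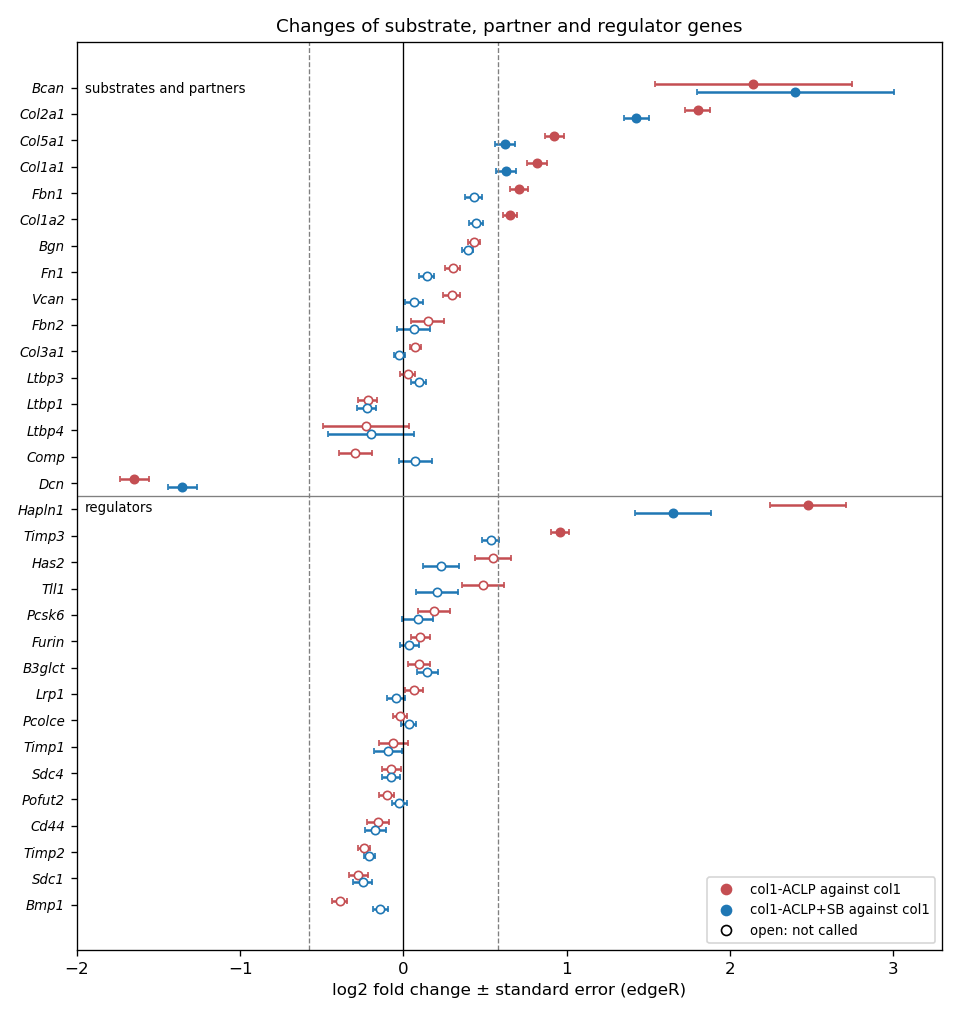
Log2 fold changes of the tested substrate, partner and regulator genes against col1, with standard errors from edgeR; filled points were called and dashed lines mark 0.58 on either side of 0. Timp3 is at 0.96 on col1-ACLP and at 0.53 with the inhibitor, and Dcn lies lowest at -1.65 and -1.35.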

How the data were processed

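RNA-seq was measured in 12 libraries, 4 per group. The authors deposited 1 table of raw read counts per gene with gene lengths. Reads were paired and polyA enriched, and the methods give alignment with HISAT2. The labels name build mm10 and the methods GRCm39. Of 56017 genes matched by ID, 85.47% of the file's positions lay within 1000 bases of a GENCODE annotation of GRCm39, which was used here. The counting tool, strand setting and handling of multiply mapped reads are not given in the sources used here.

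Counts were filtered with filterByExpr, scaled by TMM (factors 0.966 to 1.02) and tested in edgeR 4.0.16 (R 4.3.3) by the quasi-likelihood test with group as the term, all 12 libraries in 1 fit and Benjamini-Hochberg adjustment over 16465 genes. SE is the log2 fold change divided by the root of F. CPM used TMM-scaled totals. Levels between genes were compared per kb of the file's gene length. The study used DESeq2; DESeq2 1.42.0 and limma 3.58.1 were alternatives, as were other scalings and filters, a replicate block, glmTreat and leaving out each library. The fit was tested on simulated counts. It first missed a recovery goal set over all genes changed by 1 on the log2 scale, low ones included, and the goal was then restated for well-counted genes with the fit left as it was. The restated goal was met. It does not cover genes with counts as low as those of Adamtsl1 and Adamtsl2.

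The 10 genes, the lists and the tests were chosen with earlier results of these data known. Named were all 10, other family genes called or among the 3 most abundant per length, called substrates and regulators, and Vcan, Fbn1, Col1a1, Timp3, Furin and Lrp1. P-values measure the spread between these libraries of 1 cell line. Promoters were read from GRCm39 before the canonical start of each gene except Adamts5, whose window is not reported here, and protein sequences were not used here.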

Additional observations from a re-analysis of the deposited data

Results flagged for a closer look

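Of 33 groups of 4 values checked, 3 for each of the 10 genes and 3 for the library totals, 1 stood out. Adamtsl1 in col1 replicate 2 was at 0.212 CPM, far below the other col1 libraries (0.546 to 0.581 CPM) for a group of 4. It is a level of 8 counts. The same library stood apart on the first principal component. Chance alone would mark about 1 in 20 groups.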

How the results depend on the processing

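Over 20 alternatives that refit the log2 fold changes (30 values each, glmTreat and the adjusted p alone not among them), 588 of 600 values kept their direction and their side of the call at both thresholds. Apart from libraries left out, the adjusted p alone was lost for Adamts12 on col1-ACLP with library size alone (0.0739) and for Adamtsl1 with the replicate block (0.0504). In col1-ACLP+SB against col1 it was lost for Adamts1 with DESeq2 (0.0879), and for Adamts7 with the replicate block (0.0622) and with only the 2 groups compared (0.0545). Between the ACLP groups it was lost for Adamts4 with the replicate block (0.0570) and limma-voom (0.0510). GlmTreat called 0 of the 10 in any comparison. In col1-ACLP against col1, the 4 genes called higher became 1 to 4 when a library was left out (1 without col1-ACLP replicate 4) and 0 with glmTreat against 0.58. The 1 called lower stayed 1 without any single library and became 0 with glmTreat. In col1-ACLP+SB against col1, the 1 called higher became 0 to 1 without a library (0 without col1-ACLP+SB replicate 2), 0 with glmTreat and 5 by adjusted p alone, and the 0 called lower became 2. In col1-ACLP+SB against col1-ACLP, 0 became 1 higher and 3 lower by adjusted p alone. The called genes of the other lists numbered 10, 7 and 0 in the 3 comparisons (10 to 11, 6 to 7 and 0 to 1 without a library), 23, 16 and 9 by adjusted p alone, and 4 with glmTreat in the second. In the first, the other family genes called lower went from 1 to 2 without the filter. In the third, 1 was called without the filter, by DESeq2, by limma-voom, with only the 2 groups compared and without some libraries. The log2 fold change of Adamtsl2 between the ACLP groups turned to -0.026 without col1-ACLP replicate 1 and -0.12 without col1-ACLP+SB replicate 2, and reached 0.29 without col1-ACLP replicate 4. Adamtsl4 against col1 fell to 0.58 (0.575, under the cutoff) with library size alone, and Adamts1 rose to 0.58 (0.582) without col1-ACLP replicate 2, which added it to the calls. The cause was not tested beyond the fewer samples or higher bar each alternative sets.

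Same-numbered libraries did not deviate together (correlations of -0.037 to 0.036), and the labels do not say that a number marks a shared culture. With the replicate block, 3 genes were called higher and 1 lower on col1-ACLP, and no other call at both thresholds changed among the 10. Over all tested genes, 430 were called higher and 389 lower on col1-ACLP, and 144 and 86 with glmTreat. The counts of Adamtsl1 and Adamtsl2 limit what can be said of them.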
